A study of Mus musculus with 31 samples.

Results

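The 7 regulators tied to blood stem cells, Mecom, Prdm16, Hlf, Meis1, Erg, Mllt3 and Msi2, were followed through 9 sorted populations of mouse bone marrow. They were chosen by symbol from the 19938 genes with an array probe that matches 1 gene, and all 7 were measured. Mecom had 2 such probes and the other members 1 each. All arrays came from wild-type C57BL/6 mice, and each sample was RNA of 20000 cells sorted in 2 passes of flow cytometry.

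The stem and multipotent gates were Lin-/cKit+/Sca1+. Among them, LT-HSC (long-term stem cells, n = 4) were Flk2-/CD48-/CD150+ and ST-HSC (short-term stem cells, n = 3) Flk2-/CD48-/CD150-. MPP2 (n = 3) were Flk2-/CD48+/CD150+, MPP3 (n = 3) Flk2-/CD48+/CD150- and MPP4 (n = 5) Flk2+. CMP (common myeloid progenitors, n = 3) and GMP (granulocyte-macrophage progenitors, n = 4) were Lin-/cKit+/CD34+ and without or with the Fc gamma receptor. PreGr (pre-granulocytes, n = 3) were Mac1+ with intermediate Gr1, and Gr (granulocytes, n = 3) were Mac1+ with high Gr1. The labels call the replicates biological but give no age, sex, animal or pool, so p-values measure the spread between these samples. Per the labels, a related study used the stem cell and GMP samples as its controls too.

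Blood stem cells renew themselves and feed multipotent progenitors, which in turn give rise to committed progenitors and mature cells. The regulators studied here act in the nucleus on stem cell genes, except Msi2, which binds RNA. Several of them cause leukaemia when rearranged or overexpressed. MECOM and PRDM16 are zinc finger proteins of the PRDM family, HLF is a bZIP factor of the PAR group, MEIS1 is a homeodomain partner of HOX and PBX proteins, and ERG is an ETS factor. MLLT3 (AF9) links chromatin marks to transcription elongation, and MSI2 controls translation of its target RNAs.

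Values are log2 levels that the authors made by RMA, which give no call of presence or absence. They were brought to a common scale here by quantile normalization, after which the table median was 7.21. As deposited, the arrays form 5 sets that the labels do not name, joined by values identical between arrays. Their array medians averaged 6.2, 6.92, 7.8, 6.98 and 7.32 in sets 1 to 5. Those of set 2 (6.86 to 7.0) and set 4 (6.9 to 7.05) overlapped, so medians do not separate these. Set 1 held LT-HSC 1 to 3. In set 2 were GMP 4, MPP4 4, MPP4 5, MPP3 3 and LT-HSC 4. Set 3 held all ST-HSC and MPP2 arrays with MPP3 1 and 2, set 4 held MPP4 1 to 3 with all CMP arrays, and set 5 held GMP 1 to 3 with all PreGr and Gr arrays. Every comparison was therefore fitted with limma both without and with the set as a block. Below, a gene rose or fell where both fits gave a Benjamini-Hochberg adjusted p under 0.05 in the same direction. With the block, every comparison with LT-HSC rests on LT-HSC 4, the one LT-HSC array that shares a set with other populations. GMP against LT-HSC is then GMP 4 against LT-HSC 4, and MPP3 is MPP3 3 against LT-HSC 4. ST-HSC and MPP2 are linked to LT-HSC only through MPP3 3, and Gr only through GMP 4. The blocked p-values take their spread from the other arrays, so these blocked calls are not replicated results.

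Genes behind the gates were compared with the labels, and the match was partial. The CD150 gene Slamf1 averaged 8.71 in LT-HSC and 6.83 in MPP2, and 5.05 to 5.60 in ST-HSC, MPP3 and MPP4. The Flk2 gene Flt3 was highest in MPP4, at 11.27. By both fits Flt3 was also higher in ST-HSC and MPP3 than in LT-HSC, though these gates are Flk2-. Cd48 was higher than in LT-HSC by both fits in MPP3, MPP4, CMP and GMP, but not in MPP2, a CD48+ gate. The Gr1 gene Ly6g averaged 11.27 in PreGr and 12.82 in Gr, against 4.91 to 5.33 in the other populations. The samples hold bulk RNA, so fewer cells that express a gene and less RNA of it per cell cannot be told apart.

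The members lie on chromosomes 3 (Mecom), 4 (Mllt3 and Prdm16), 11 (Meis1, Hlf and Msi2) and 16 (Erg) of GRCm38.p6. Of these, 6 are longer than 92.7% or more of the 21896 protein-coding genes placed there, with Mecom at 558.5 kb against a median of 17.1 kb. Hlf, at 54.4 kb, is longer than 79.1%. Msi2 and Hlf lie 1.62 Mb apart. RefSeq lists 13 promoter windows for the 7 genes in this build, each from 250 bases before a start to 50 after it, and all lie on the minus strand. The 3 Msi2 windows overlap each other.

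The promoter windows of Mecom and Prdm16, relatives within the PRDM family whose falls are described below, share a stretch of 24 bases. It begins 26 bases after the first start of Mecom and reaches the end of that window, and it begins 9 bases after the start of Prdm16. Of 32851 windows, 2 hold it, those of Mecom and Prdm16. Other pairs of first windows among the members share at most 14 bases, and the second Mecom window shares at most 7 with Prdm16. The shared stretch is in capitals below, and the second Mecom window, which lacks it, has none. Mecom, first start, chr3:30509710-30510009, and second start, chr3:30013155-30013454, and Prdm16, chr4:154636824-154637123:
Mecom, first start: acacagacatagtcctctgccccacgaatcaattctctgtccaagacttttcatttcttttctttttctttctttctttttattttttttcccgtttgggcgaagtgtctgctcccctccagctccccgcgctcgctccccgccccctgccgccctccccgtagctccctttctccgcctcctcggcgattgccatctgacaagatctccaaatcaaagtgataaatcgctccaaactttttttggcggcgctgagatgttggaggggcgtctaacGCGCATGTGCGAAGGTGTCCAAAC
Mecom, second start: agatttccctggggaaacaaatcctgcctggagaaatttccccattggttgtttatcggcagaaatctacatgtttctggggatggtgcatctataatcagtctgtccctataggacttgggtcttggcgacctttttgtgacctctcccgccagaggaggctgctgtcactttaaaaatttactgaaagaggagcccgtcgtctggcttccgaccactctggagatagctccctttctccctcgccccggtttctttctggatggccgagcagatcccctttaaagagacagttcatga
Prdm16: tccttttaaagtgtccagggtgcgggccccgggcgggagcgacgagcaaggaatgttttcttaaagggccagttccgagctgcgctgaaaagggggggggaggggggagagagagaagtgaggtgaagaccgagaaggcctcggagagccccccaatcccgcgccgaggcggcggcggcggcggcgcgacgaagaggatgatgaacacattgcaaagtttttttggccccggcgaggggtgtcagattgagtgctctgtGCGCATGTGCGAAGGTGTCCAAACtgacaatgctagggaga

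Hlf and Msi2, on the same stretch of chromosome 11, both hold the cyclic AMP response element TGACGTCA, which reads the same on both strands and is found in 1.79% of all windows. It is in capitals in the windows of Hlf, chr11:90390868-90391167, and of the first Msi2 start, chr11:88718228-88718527:
Hlf: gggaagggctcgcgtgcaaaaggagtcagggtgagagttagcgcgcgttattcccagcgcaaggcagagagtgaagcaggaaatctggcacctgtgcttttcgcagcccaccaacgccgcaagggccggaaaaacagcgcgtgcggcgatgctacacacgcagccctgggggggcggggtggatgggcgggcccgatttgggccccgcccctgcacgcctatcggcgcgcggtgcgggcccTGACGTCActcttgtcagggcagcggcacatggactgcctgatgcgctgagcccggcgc
Msi2, first start: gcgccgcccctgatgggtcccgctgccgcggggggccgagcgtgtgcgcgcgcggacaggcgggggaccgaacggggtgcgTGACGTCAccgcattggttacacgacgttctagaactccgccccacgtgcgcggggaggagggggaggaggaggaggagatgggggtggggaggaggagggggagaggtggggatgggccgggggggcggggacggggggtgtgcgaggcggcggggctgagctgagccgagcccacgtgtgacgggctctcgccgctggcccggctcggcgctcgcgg

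Other motifs were searched on both strands in the 13 windows. The ETS motif CCGGAAGT (3.89% of all windows) and the RUNX motif TGTGGT (16.8%) were found in Meis1. The GATA motif AGATAA (11.2%) was found in the third Erg window, and the E-box CAGCTG (16.3%) in the first Mllt3 window. The MEIS motif TGACAG (19.2%) was found in 3 windows, of Erg, Mecom and Mllt3. The PAR bZIP motif TTACGTAA, found in 0.119% of windows, was in 0 of the 13. These matches describe letters within short windows and were chosen with the sequences in view.

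**Figure D1:**
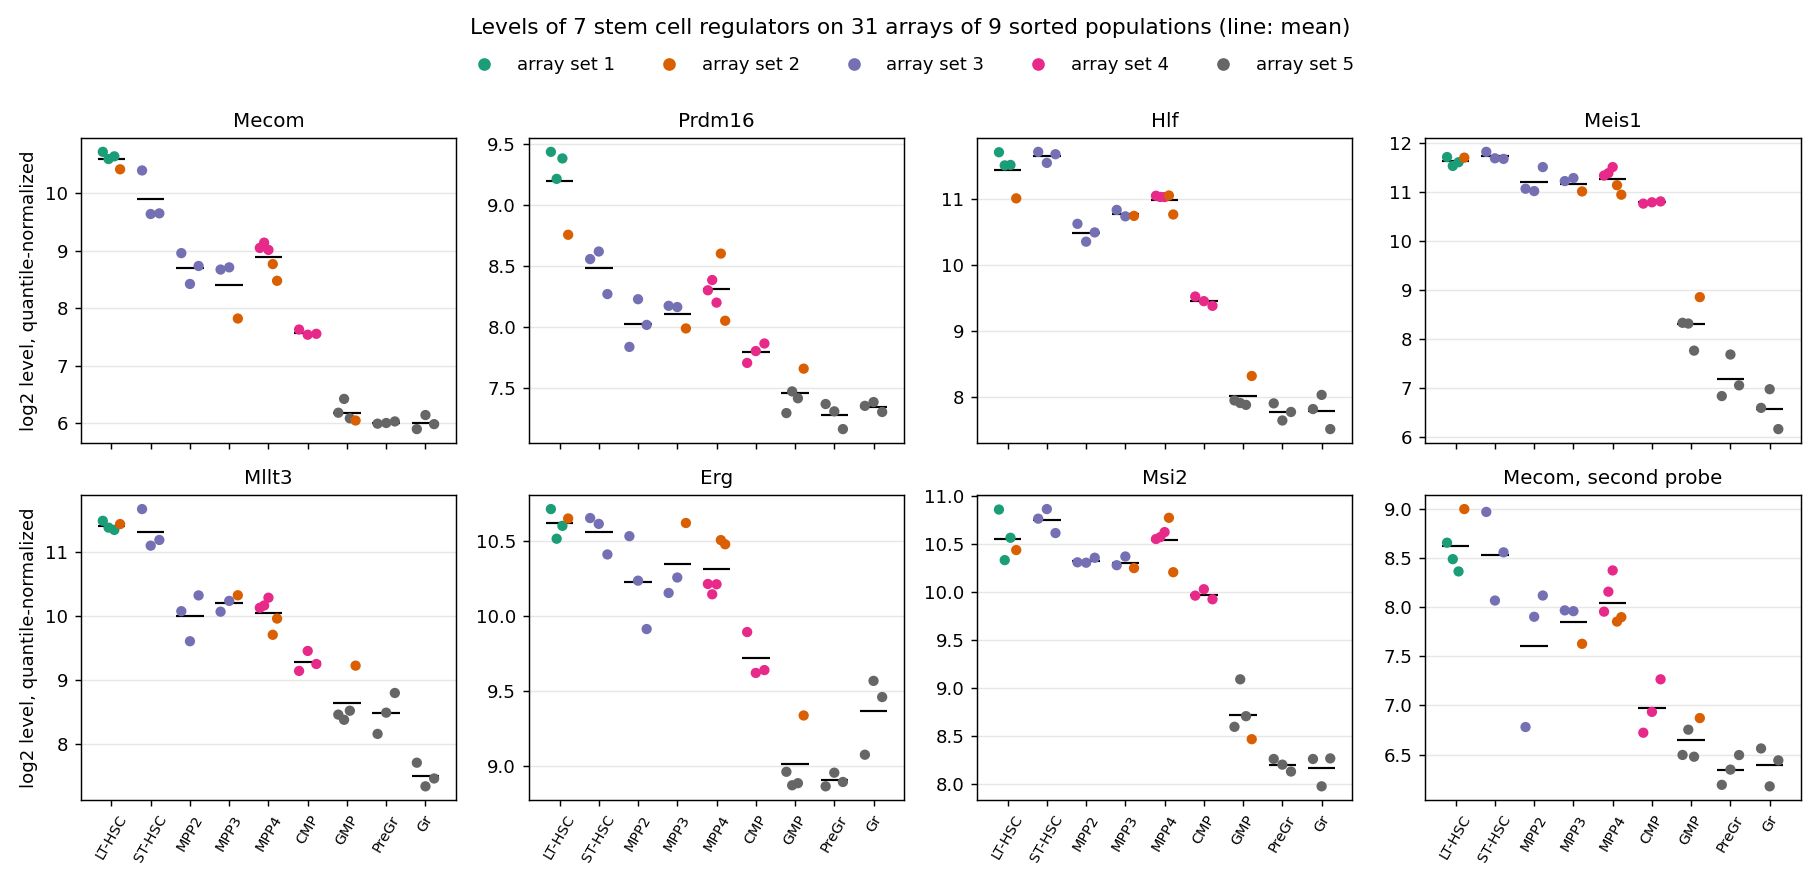
Log2 level after quantile normalization (vertical axis) of each regulator on 31 arrays, by population from LT-HSC to Gr, with a line at each mean and points coloured by array set. The last panel shows the second Mecom probe. The main Mecom probe averaged 6.01 in Gr and 10.59 in LT-HSC, while Meis1 still averaged 10.78 in CMP.

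All 7 regulators fell in GMP and in Gr relative to LT-HSC, and the population where the fall was first called differed. Mecom fell in all 7 populations that were compared with LT-HSC, and in ST-HSC it was the only member that fell. Mllt3 fell in all 3 multipotent progenitors and Prdm16 in MPP2 and MPP3. Hlf and Meis1 were first called in CMP. Erg and Msi2 were first called by both fits in GMP, while in CMP they passed the test in the fit without the set block alone. The comparisons with LT-HSC share the same LT-HSC arrays.

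In ST-HSC against LT-HSC, 1 of 7 members fell, where 0.291% of all genes did. In MPP2 against LT-HSC 3 of 7 fell (2.05% of all genes), in MPP3 3 of 7 (1.75%) and in MPP4 2 of 7 (1.11%). In CMP against LT-HSC 5 of 7 fell (1.72%), in GMP 7 of 7 (3.31%) and in Gr 7 of 7 (11.3%). The median change of the members was -1.40 in CMP, -2.77 in GMP and -3.64 in Gr against LT-HSC, while the median over all genes lay between 0.03 and 0.06. With the set block the members' medians were -1.28, -2.22 and -2.81, and those of all genes 0.08 to 0.12.

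Without the set block, the members called, of 7, were 2 in ST-HSC (22.8% of all genes in either direction), 5 in MPP2 (36.1%), 4 in MPP3 (27.5%), 4 in MPP4 (24.7%), 7 in CMP (21.5%), 7 in GMP (35.2%) and 7 in Gr (56.0%) against LT-HSC. With the block they were 1 in ST-HSC (1.47%), 3 in MPP2 (8.16%), 3 in MPP3 (6.65%), 2 in MPP4 (2.74%), 5 in CMP (5.75%), 7 in GMP (7.82%) and 7 in Gr (25.2%). All of these calls were in the lower direction.

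**Figure D2:**
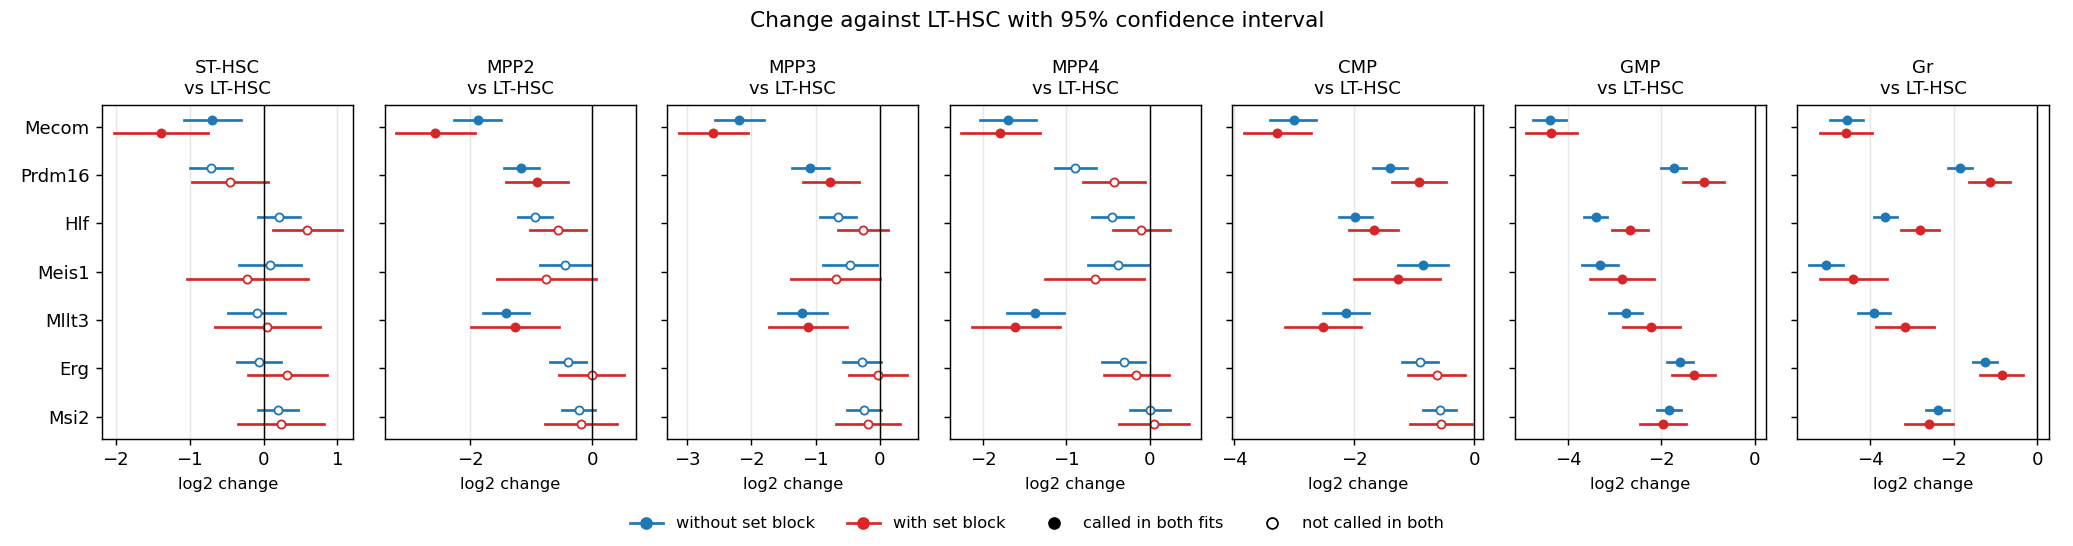
Log2 change of each regulator in 7 populations against LT-HSC, with 95% confidence intervals, from limma without (blue) and with (red) the array set as a block. Filled points mark changes called in both fits. All 7 are filled in GMP and Gr, and Mecom is filled in every panel.

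Mecom encodes a zinc finger factor that stem cells need for their upkeep. Its main probe read 10.39, 9.63 and 9.65 in ST-HSC, against 10.71, 10.59, 10.64 and 10.41 in LT-HSC. It read 8.96, 8.42 and 8.73 in MPP2, 8.67, 8.71 and 7.82 in MPP3 and 9.05, 9.14, 9.01, 8.77 and 8.48 in MPP4. All ST-HSC arrays lay below all LT-HSC arrays, and all multipotent progenitor arrays lay below all ST-HSC arrays. CMP read 7.63, 7.54 and 7.56, below every multipotent progenitor array. GMP, PreGr and Gr arrays lay between 5.90 and 6.43, lower again and close to each other.

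Mecom was 1.62-fold lower in ST-HSC than in LT-HSC (log2 change -0.70, 95% interval -1.08 to -0.31, adjusted p = 0.00942). With the set block the change was -1.39 (adjusted p = 0.0297). On the deposited scale the change was 0.23 (adjusted p = 0.402), and with the mean of both probes -0.40 (adjusted p = 0.0795). The call also ended without ST-HSC 2 or ST-HSC 3, and with the set block without ST-HSC 3, MPP3 1 or MPP3 2, with changes of -1.64 to -0.57 over all arrays left out. The fall in MPP2 was 3.69-fold (adjusted p = 1.08e-07, and 5.97-fold with the set block), in MPP3 4.55-fold (6.88e-09), in MPP4 3.25-fold (3.68e-08), in CMP 8.07-fold (1.57e-11), in GMP 21.1-fold (6.06e-17) and in Gr 23.8-fold (1.32e-17). The means of 6.19 in GMP and 6.01 in Gr lie under the 25th percentile of gene means (6.41) and were not shown to be above background, so the folds in GMP and Gr may understate the difference.

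The second Mecom probe was lower than in LT-HSC by both fits in MPP2 (log2 change -1.03), CMP (-1.65), GMP (-1.98) and Gr (-2.23). In ST-HSC it differed from LT-HSC by -0.10 (adjusted p = 0.799, and 0.432 with the set block). In MPP3 and MPP4 its changes were -0.77 and -0.58, with adjusted p = 0.0506 and 0.101 with the set block. The lower level in ST-HSC was thus measured by one probe of 2, and which Mecom transcripts each probe reads was not used here.

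Prdm16 encodes the closest relative of Mecom and protects stem cells from oxidative stress. Its probe read 8.55, 8.62 and 8.27 in ST-HSC, against 9.43, 9.21, 9.38 and 8.75 in LT-HSC. MPP2 read 7.84, 8.23 and 8.02, MPP3 8.17, 8.16 and 7.99, and MPP4 8.30, 8.38, 8.20, 8.60 and 8.05. LT-HSC 4, the array of another set, was the lowest of its group, yet none of these later arrays reached it. CMP read 7.71, 7.80 and 7.87, and the GMP, PreGr and Gr arrays lay between 7.17 and 7.66. The Prdm16 means of 7.46 in GMP, 7.28 in PreGr and 7.35 in Gr were close to the table median of 7.21. They were not shown to be above background, so the folds there may understate the difference.

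Prdm16 fell 2.25-fold in MPP2 against LT-HSC (log2 change -1.17, adjusted p = 1.04e-06, and -0.91, adjusted p = 0.0287, with the set block). It fell 2.12-fold in MPP3 (adjusted p = 3.62e-06), 2.64-fold in CMP (3.80e-08) and 3.32-fold in GMP (2.67e-11, and 2.14-fold with the block). In ST-HSC the change was -0.71 (adjusted p = 0.000812) without the block and -0.45 (adjusted p = 0.361) with it, so it was not called, and MPP4 gave -0.89 and -0.43 (adjusted p = 0.22 with the block). The MPP2 call ended with the block without MPP3 1 or MPP3 2 (changes -1.01 to -0.81), and the CMP call without MPP4 5 (changes -1.21 to -0.66). On the deposited scale Prdm16 changed by -0.10 in MPP2 and -0.27 in MPP3, neither called.

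Hlf encodes a bZIP factor used to mark stem cells. It read 11.71, 11.54 and 11.67 in ST-HSC, against 11.70, 11.50, 11.51 and 11.01 in LT-HSC. The groups overlapped and the log2 difference was 0.21 (95% interval -0.07 to 0.49, adjusted p = 0.27). MPP2 read 10.62, 10.35 and 10.49, MPP3 10.83, 10.73 and 10.74, and MPP4 11.04, 11.03, 11.02, 11.05 and 10.76. All of these but 4 MPP4 arrays lay below every stem cell array, since LT-HSC 4 stood at 11.01. CMP read 9.52, 9.45 and 9.38, GMP 7.95, 7.91, 7.88 and 8.32, and the PreGr and Gr arrays 7.52 to 8.03.

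Against ST-HSC, Hlf fell 2.22-fold in MPP2 (log2 change -1.15, adjusted p = 3.08e-06) and 1.83-fold in MPP3 (-0.87, adjusted p = 0.000321). Against LT-HSC its fall was called in CMP (3.94-fold, adjusted p = 7.64e-11), GMP (10.7-fold, 1.25e-17) and Gr (12.5-fold, 1.46e-18). With the set block the CMP, GMP and Gr changes were -1.68, -2.68 and -2.81. Hlf in MPP2, MPP3 and MPP4 against LT-HSC passed the test without the block (changes -0.94, -0.66 and -0.45) and missed it with the block (-0.56, -0.27 and -0.10, adjusted p = 0.114 to 0.83).

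Meis1 encodes a homeodomain cofactor of HOX proteins. Its multipotent progenitor means were 11.17 to 11.26, against 11.63 in LT-HSC, and the changes of -0.47 to -0.38 were not called (adjusted p = 0.0853 to 0.122). It read 11.81, 11.68 and 11.67 in ST-HSC, against 11.71, 11.53, 11.60 and 11.70 in LT-HSC, and the 11 MPP arrays lay between 10.94 and 11.50. CMP read 10.76, 10.78 and 10.80, below every MPP array. GMP read 8.32, 8.31, 7.76 and 8.85, PreGr 6.83, 7.68 and 7.05, and Gr 6.59, 6.97 and 6.16. GMP lay far below CMP and above all PreGr arrays, while PreGr and Gr overlapped.

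Meis1 fell 5.54-fold in GMP against CMP (log2 change -2.47, adjusted p = 1.19e-09), and by -1.56 on the log2 scale with the set block (adjusted p = 0.0195). It fell a further 2.18-fold in PreGr against GMP (adjusted p = 0.000151) and 1.53-fold in Gr against PreGr (adjusted p = 0.045). In Gr it was 33.4-fold lower than in LT-HSC (adjusted p = 6.65e-18), the largest fall of the 7 without the block, and 21.2-fold lower with it. In CMP against LT-HSC the fall was 1.81-fold (adjusted p = 0.00318, and 0.03 with the block), and it ended with the block without CMP 1, MPP4 3, MPP4 4 or MPP4 5 (changes -1.38 to -1.19) and on the deposited scale (-0.35, adjusted p = 0.271). The GMP against CMP call ended with the block without MPP4 4 (changes -1.66 to -1.47), and the Gr against PreGr call without Gr 1, Gr 3, PreGr 2 or PreGr 3 (changes -0.81 to -0.37), within set 5 alone (adjusted p = 0.107), and on the deposited scale, with median centring and with array weights.

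Erg encodes an ETS factor that works with GATA2, RUNX1, TAL1 and their partners on stem cell genes. It read 10.65, 10.61 and 10.41 in ST-HSC, against 10.71, 10.51, 10.60 and 10.65 in LT-HSC, and the MPP arrays lay between 9.91 and 10.62. CMP read 9.89, 9.62 and 9.64, below every MPP array. GMP read 8.96, 8.87, 8.88 and 9.33, PreGr 8.86, 8.95 and 8.89, and Gr 9.07, 9.56 and 9.46. The lowest means were in PreGr (8.90) and GMP (9.01), and all Gr arrays lay above all PreGr arrays.

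Erg fell 3.05-fold in GMP against LT-HSC (log2 change -1.61, adjusted p = 2.58e-10, and -1.31, adjusted p = 0.000375, with the set block) and 2.38-fold in Gr (-1.25, adjusted p = 3.29e-08). In CMP against LT-HSC Erg changed by -0.90 (adjusted p = 5.96e-05) without the block and -0.63 (adjusted p = 0.11) with it, and the arrays did not overlap. It was the member with the smallest fall in Gr in both fits. Between Gr and PreGr it rose 1.38-fold (log2 change 0.46, 95% interval 0.15 to 0.78, adjusted p = 0.0338, and 0.00766 with the block). That rise was also called within set 5 (adjusted p = 0.0149), but not on the deposited scale (0.41, adjusted p = 0.257) or with median centring (0.35, adjusted p = 0.124). It ended without Gr 2, Gr 3, PreGr 1, PreGr 2 or PreGr 3 in the fit without the block, and without Gr 2 in the fit with it (changes 0.36 to 0.61). In the same comparison 2 of 4 B cell markers rose, Cd79b and Ebf1, and of 5 T and NK cell markers 2 rose (Cd3d and Cd3g) and Klrb1c fell. Of all genes 8.12% rose and 11.2% fell. The mean level of the T and NK cell markers spanned 7.43 to 7.76 in Gr, against 7.13 to 7.19 in PreGr, and that of the B cell markers 7.33 to 8.31, against 7.04 to 7.54. Their part in the Erg result was not tested.

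Mllt3 encodes a reader of acylated histones that recruits the elongation machinery and DOT1L. It read 11.67, 11.10 and 11.19 in ST-HSC, against 11.49, 11.38, 11.35 and 11.44 in LT-HSC. MPP2 read 10.07, 9.60 and 10.32, MPP3 10.07, 10.23 and 10.32, and MPP4 10.13, 10.16, 10.29, 9.70 and 9.96. The stem cell groups overlapped each other, and every MPP array lay below all of them. CMP read 9.14, 9.45 and 9.25, GMP 8.45, 8.37, 8.52 and 9.22, PreGr 8.15, 8.48 and 8.79, and Gr 7.70, 7.33 and 7.45.

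Mllt3 fell 2.50-fold in MPP2 against ST-HSC (log2 change -1.32, adjusted p = 5.88e-05) and 2.16-fold in MPP3 against ST-HSC (-1.11, adjusted p = 0.000904). Against LT-HSC it fell 2.67-fold in MPP2 (adjusted p = 4.36e-06), 2.31-fold in MPP3 (5.28e-05), 2.58-fold in MPP4 (1.21e-06), 4.39-fold in CMP (6.18e-09), 6.84-fold in GMP (1.09e-12) and 15.1-fold in Gr (4.53e-16, and a log2 change of -3.17 with the set block). It fell once more in Gr against PreGr, by 1.97-fold (log2 change -0.98, adjusted p = 0.000581), with no overlap between the groups. GMP against CMP gave -0.64 without the block and 0.30 with it (adjusted p = 0.744), so no direction is given for that step. The call in MPP2 against LT-HSC ended with the block without MPP3 1 or MPP3 2 (changes -1.43 to -1.07), and on the deposited scale (-0.49).

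Msi2 encodes an RNA-binding protein that sets stem cell self-renewal through translation. Its levels in ST-HSC (10.76, 10.86 and 10.61), MPP4 (10.55, 10.57, 10.62, 10.77 and 10.21) and LT-HSC (10.86, 10.33, 10.56 and 10.44) overlapped. MPP2 and MPP3 lay between 10.25 and 10.37. CMP read 9.96, 10.03 and 9.92, below all of these. GMP read 8.60, 9.09, 8.71 and 8.47, PreGr 8.26, 8.20 and 8.13, and Gr 8.26, 7.97 and 8.27.

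Msi2 fell 2.39-fold in GMP against CMP (log2 change -1.26, adjusted p = 1.20e-07, and -1.41, adjusted p = 0.00278, with the set block) and 1.43-fold in PreGr against GMP (-0.52, adjusted p = 0.00609). The second of these calls was lost on the deposited scale (-0.44) and with median centring (-0.59), and it held within set 5 (adjusted p = 0.00932). Against LT-HSC it was 3.57-fold lower in GMP (adjusted p = 3.90e-12) and 5.21-fold lower in Gr (1.37e-14). In CMP the change was -0.58 (adjusted p = 0.00257) without the block and -0.56 (adjusted p = 0.204) with it, and the arrays did not overlap. In MPP4 it differed from LT-HSC by 0.00 on the log2 scale (95% interval -0.24 to 0.24, adjusted p = 0.989), and by 0.05 (-0.37 to 0.48) with the block. Gr and PreGr differed by -0.03 (-0.32 to 0.26, adjusted p = 0.94).

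The place of the fall can be read as the share of each gene's whole LT-HSC to Gr difference, on the log2 scale, that was present in CMP. The share was 65.7% for Mecom, 76.1% for Prdm16, 54.4% for Hlf, 71.4% for Erg and 54.5% for Mllt3. It was 16.8% for Meis1 and 24.4% for Msi2. On levels adjusted for the set it was 71.6%, 81.6%, 59.8%, 74.1% and 79.7% for the first 5, and 29.3% and 21.5% for Meis1 and Msi2. In GMP the shares of Meis1 and Msi2 were 65.6% and 77.3%. Erg was lower in GMP and PreGr than in Gr, with shares of 128% and 137% (154% and 155% set-adjusted). Its CMP share is therefore raised by its Gr level and is not comparable with the others. Set-adjusted Mllt3 was lower in CMP (8.79) than in GMP (9.1, a share of 69.9%), so its 79.7% gives no order of these steps. Gr levels of Mecom and Prdm16 were not shown to be above background, so their shares may be overstated. Whether these shares differ between the genes was not tested.

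Further comparisons ask how the regulators change between neighbouring populations. The arrays of MPP2 and ST-HSC lie within set 3. In MPP2 against ST-HSC 3 of 7 members fell, Mecom, Hlf and Mllt3 (3.78% of all genes fell). The same 3 fell in MPP3 against ST-HSC (0.767% of all genes). Mecom was 2.28-fold lower in MPP2 (adjusted p = 0.000238) and 2.81-fold lower in MPP3 (2.11e-05) than in ST-HSC, and the MPP2 call was lost when only the arrays of those populations were fitted. Within set 3 alone, with MPP3 1 and 2, Hlf kept its call in MPP3 (adjusted p = 0.0105), while Mecom (-1.20, adjusted p = 0.0687) and Mllt3 (-1.17, adjusted p = 0.0631) missed it.

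Between MPP2 and MPP3, 0 of 7 members were called by limma in either direction, where 0.662% of all genes were. Without adjustment, the 95% interval of every member held 0 without the set block, and with it that of Hlf did not (-0.29, -0.55 to -0.04). For how many of all genes this holds is not given here. The log2 differences lay between -0.28 (Hlf, 95% interval -0.58 to 0.02) and 0.30 (Mecom, -0.11 to 0.72). Among the genes of the gates, Slamf1 was higher in MPP2 than in MPP3 and Flt3 and Fcgr3 were lower. Among the lineage markers, Pf4 was higher and Mpo and Elane were lower.

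In CMP against MPP4, 6 of 7 members fell, where 1.46% of all genes did. Arrays of all 7 did not overlap, which held for 6.92% of genes in the lower direction. Hlf fell 2.89-fold (log2 change -1.53, adjusted p = 1.15e-08) and Mecom 2.48-fold (-1.31, adjusted p = 2.84e-05). Mllt3 (-0.77, adjusted p = 0.0107), Erg (-0.59, adjusted p = 0.0102), Msi2 (-0.57, adjusted p = 0.00676) and Prdm16 (-0.52, adjusted p = 0.0205) fell less, and Meis1 changed by -0.48 (adjusted p = 0.16, and 0.049 with the set block). Within set 4 alone, with 3 arrays of each population, Meis1 was called too, at -0.62 (adjusted p = 0.00387), and the other members kept their calls. The share of all genes called in that fit is not given here.

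On the deposited scale and with median centring, Mllt3, Prdm16, Erg and Msi2 were not called in CMP against MPP4 over all arrays, and Hlf and Mecom were. Single arrays decided some of the calls as well. Mllt3 was lost without CMP 1 or CMP 3 (changes -0.86 to -0.70) and Prdm16 without CMP 1, CMP 2, CMP 3 or MPP4 4, and with the block without CMP 1 or MPP4 2 (changes -0.58 to -0.44). Erg was lost without CMP 2 or CMP 3, and with the block also without MPP4 1, MPP4 2 or MPP4 3 (changes -0.68 to -0.42). With the replicate number as a block Erg changed by -0.49 (adjusted p = 0.0542).

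In GMP against CMP, 4 of 7 members fell, Meis1, Msi2, Hlf and Mecom, where 0.517% of all genes did. Hlf fell 2.70-fold (log2 change -1.43, adjusted p = 1.70e-08, and 0.00705 with the set block), a call that ended with the block without MPP4 4 (adjusted p = 0.0521). Mecom fell 2.62-fold (-1.39, adjusted p = 6.76e-06), with a change of -1.08 and an adjusted p of 0.048 with the block. That call ended with the block (changes -1.22 to -0.93) without any CMP or PreGr array, GMP 1 to 3, LT-HSC 1 to 3, MPP2 3, MPP3 1 or 2, MPP4 1 to 4, or Gr 2 or 3. The second Mecom probe gave -0.32 (adjusted p = 0.409).

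In these later comparisons without the set block, 3 of 7 members were called in MPP2 against ST-HSC (6.58% of all genes in either direction), 3 in MPP3 against ST-HSC (3.15%), 0 in MPP2 against MPP3 (0.963%), 6 in CMP against MPP4 (5.10%), 6 in GMP against CMP (11.7%), 2 in PreGr against GMP (16.6%) and 3 in Gr against PreGr (19.3%). With the block these were 5 (10.8%), 3 (3.12%), 0 (1.06%), 7 (7.23%), 4 (1.32%), 2 (19.0%) and 3 (26.5%), in the same order.

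In PreGr against GMP 2 of 7 fell, Meis1 and Msi2 (8.98% of all genes fell). In Gr against PreGr 2 of 7 fell, Meis1 and Mllt3 (11.2% of all genes), and 1, Erg, rose (8.12%). Mecom and Hlf differed between Gr and PreGr by 0.00 and 0.01 (95% intervals -0.41 to 0.41 and -0.28 to 0.31).

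**Figure D3:**
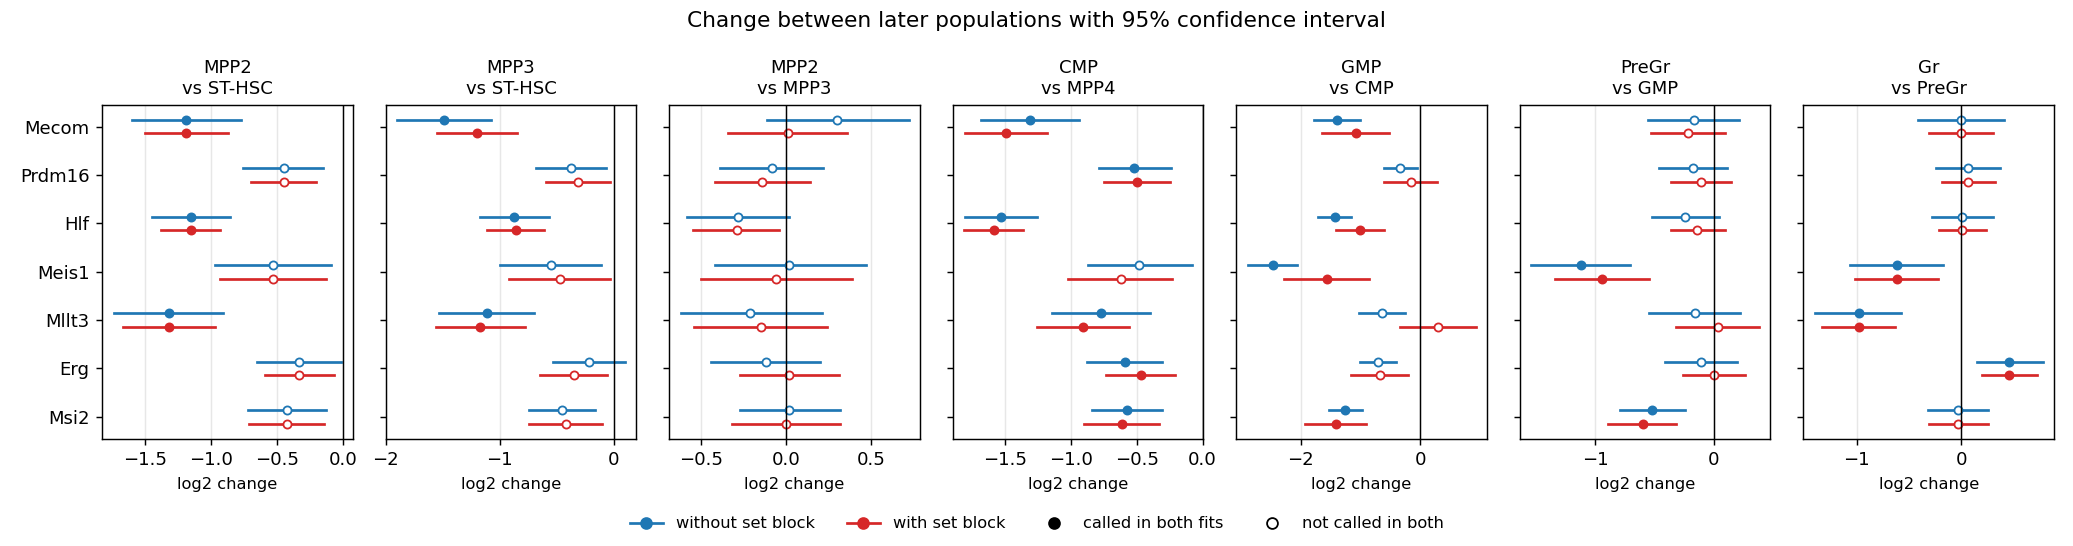
Log2 change of each regulator between later populations, with 95% confidence intervals, from limma without (blue) and with (red) the array set as a block. Filled points mark changes called in both fits. Filled points are most frequent in CMP against MPP4, where 6 of 7 fell, and Erg in Gr against PreGr is the one filled point above 0.

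Genes related to the members by family or function were read in the same way. The paralogues (Tef, Dbp and Nfil3 of the PAR and related bZIP factors, Mllt1, Msi1, Fli1, Meis2, Meis3, Pknox1, Prdm1 and Etv2) were counted first. By limma in both fits, 0 of 11 fell in CMP, GMP or Gr against LT-HSC, where 1.72%, 3.31% and 11.3% of all genes fell. For 11 genes this is near those shares, so the count does not set the paralogues apart. At an unadjusted p under 0.05 with the set block it was also 0 of 11 in each, and without it 2, 5 and 2. The share of all genes at that threshold is not given here. Nfil3, a repressor at the same DNA sites as HLF, rose 2.39-fold in GMP against LT-HSC (log2 change 1.26, adjusted p = 1.12e-05) and 5.99-fold in Gr (2.58, adjusted p = 4.14e-11). In the blocked fit the rises were 5.56-fold and 15.4-fold. Both rest on LT-HSC 4 and GMP 4, where the LT-HSC arrays spanned 6.82 to 7.98 and the GMP arrays 8.62 to 9.29. It averaged 7.59 ± 0.52 in LT-HSC, 7.98 ± 0.27 in CMP, 8.85 ± 0.30 in GMP, 9.64 ± 0.12 in PreGr and 10.17 ± 0.15 in Gr (SD).

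**Figure D4:**
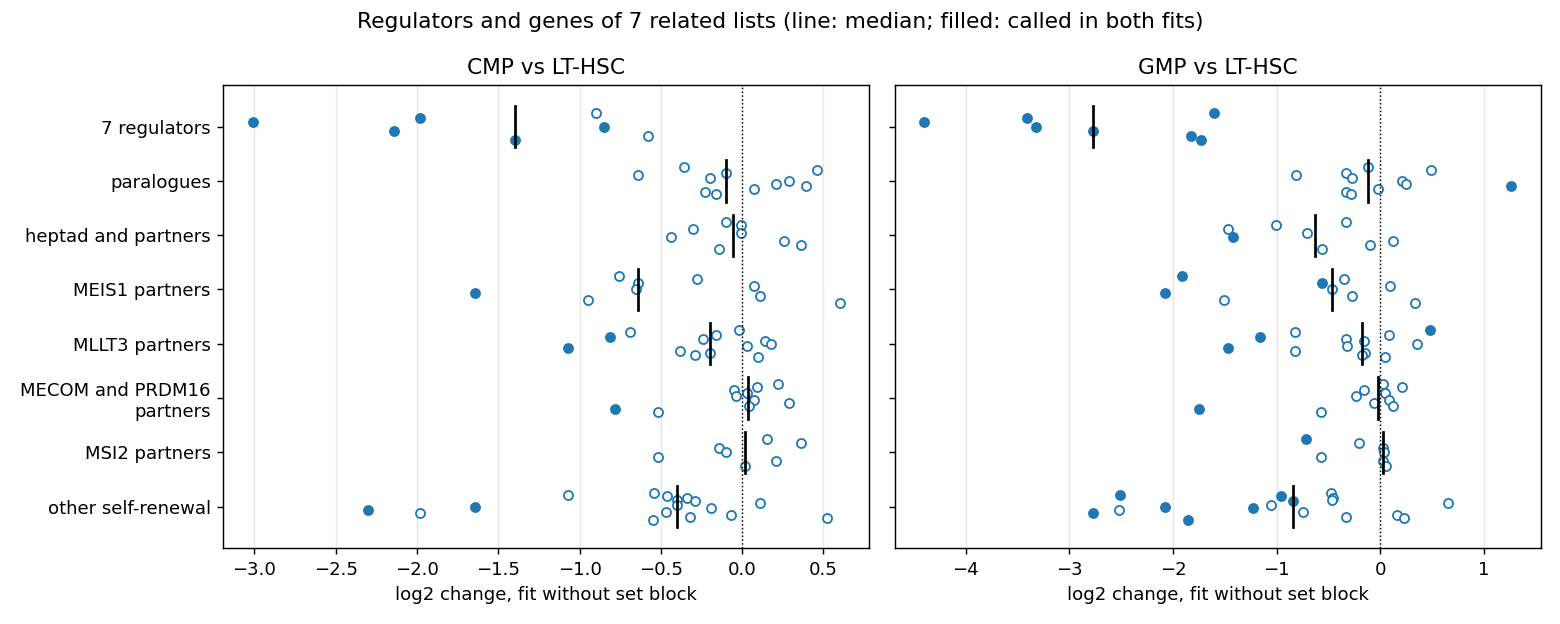
Log2 change in CMP (left) and GMP (right) against LT-HSC, from limma without the set block, of the 7 regulators and of genes in 7 related lists. Each point is a gene, filled where both fits called it, and the line is the list's median. In GMP all 7 regulators are filled, at a median of -2.77, and the paralogues lie around -0.12 with Nfil3 to the right.

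The next list held 8 genes, made up of factors of the stem cell heptad that includes ERG and of partners of that heptad. Of these, 1 of 8 fell in GMP against LT-HSC, where 3.31% of all genes did. The list had a median of -0.63 without the set block, where 6 of 8 were called lower, and -0.39 with it. The gene called in both fits was Lmo2, the bridging LIM protein of the complex (2.68-fold, log2 change -1.42, adjusted p = 1.62e-11). Gfi1b (-1.47), Gata2 (-1.01), Ldb1 (-0.71), Tal1 (-0.56) and Fli1 (-0.33) passed the test without the block and missed it with the block (-0.51, -0.52, -0.58, -0.16 and -0.27, adjusted p = 0.097 to 0.55). Runx1 (-0.10) and Lyl1 (0.12) passed neither. In GMP against CMP 3 of 8 fell (0.517% of all genes), Gfi1b 2.24-fold (adjusted p = 1.21e-05), Lmo2 1.98-fold (3.06e-07) and Ldb1 1.63-fold (0.00188). In CMP against MPP4, where Erg fell, Gata2 rose 1.65-fold (adjusted p = 0.00113) and Gfi1b, a repressor active in erythroid and platelet precursors, rose 1.52-fold (0.0214). In the same comparison the megakaryocyte markers Pf4 and Gp9 rose, and their part in this was not tested.

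Of 9 HOX and PBX partners of MEIS1, 3 fell in GMP against LT-HSC, where 3.31% of all genes did. Hoxb5 fell 4.22-fold (adjusted p = 1.09e-06), Hoxa10 3.75-fold (1.54e-09) and Hoxa9 1.47-fold (0.000626). The blocked fit gave falls of 2.27-fold for Hoxb5 and 1.60-fold for Hoxa10. In CMP against LT-HSC 1 of 9 fell (1.72% of all genes), Hoxb5, by 3.12-fold (adjusted p = 0.000248). Hoxa9 fell in CMP against MPP4, by 1.63-fold (adjusted p = 0.000732).

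Of 17 other genes tied to self-renewal, 7 fell in GMP against LT-HSC and 0 rose, where 3.31% of all genes fell. The median change was -0.84 against 0.06 over all genes, and -0.54 against 0.10 with the set block. The largest were Nr4a1 (6.83-fold, adjusted p = 1.76e-08) and Egr1 (5.68-fold, 4.30e-11), immediate early factors linked to stem cell dormancy. Egr1 was 3.06-fold lower in the blocked fit. Hoxb5, which stands in both lists, and Zfp521 (3.63-fold, adjusted p = 6.54e-11), a zinc finger cofactor, came next. Of 7 genes in the MSI2 list, Ikzf2, which encodes Helios, fell 1.65-fold (adjusted p = 0.0175), while Syncrip, an RNA-binding partner, changed by 0.02 (adjusted p = 0.914). The list of corepressors and other partners of MECOM and PRDM16 (10 genes) had 1 call in GMP against LT-HSC, Skil, and a median of -0.02. Of 13 partners of MLLT3 in elongation and H3K79 methylation, Ell2 (log2 change -1.47, adjusted p = 4.33e-10) and Ccnt1 (-1.16, adjusted p = 2.90e-07) fell and Aff1 (0.48, adjusted p = 0.025) rose.

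Markers of other cells were read beside these results. The 6 endothelial markers were included because endothelium also expresses Erg, Mecom and Prdm16. The mean level of this list spanned 6.96 to 7.12 on the GMP arrays, against 7.09 to 7.49 on the LT-HSC arrays. Cdh5, which defines endothelium, averaged 6.81 to 7.05 in all populations. In GMP against LT-HSC 1 of 6 fell in both fits, Tie1, where 3.31% of all genes did. Tie1 was 2.32-fold lower in GMP (7.54 on average) than in LT-HSC (8.75), and early blood progenitors express it too. Kdr (6.13 in GMP, 6.86 in LT-HSC) and Sox18 (7.15 in GMP, 7.63 in LT-HSC) were lower and Plvap (7.05 in GMP, 6.73 in LT-HSC) higher in the fit without the block alone.

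Megakaryocyte markers (Pf4, Gp9 and Ppbp) moved with the members in several comparisons. Their mean level spanned 6.63 to 7.22 in MPP3, 6.50 to 7.21 in MPP4 and 6.46 to 6.88 in GMP, against 7.62 to 8.69 in LT-HSC. In each of these comparisons 3 of 3 were called lower without the block and 0 of 3 with it. Of all genes, 27.5% (MPP3), 24.7% (MPP4) and 35.2% (GMP) were called in either direction without the block. With it these were 6.65%, 2.74% and 7.82%. In MPP2 and CMP the list spanned 8.38 to 8.54 and 8.42 to 8.58, within the range of LT-HSC. Pf4 was called lower by both fits in GMP against CMP (6.91 in GMP, 10.97 in CMP) and in Gr against LT-HSC (6.11 in Gr, 9.40 in LT-HSC). The part of these markers, endothelial or megakaryocyte, in the results was not tested.

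The members' population means followed a like order. Pearson's r over the 9 population means lay between 0.83 (Meis1 and Prdm16) and 0.992 (Meis1 and Msi2) for the 21 pairs. Within populations, over 31 arrays as deviations from their means, it lay between -0.232 and 0.527. All pairs share the same arrays and the same sets.

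The genes most like each member were taken as those with the highest r over the 9 population means among 1607 named genes whose means span at least 2 log2 units. For Mecom they were F11r (0.993), which encodes a junctional adhesion protein found on stem cells, Iigp1 (0.992), Dst (0.992), Eya2 (0.989) and Arhgef12 (0.986). For Hlf they were Nr4a2 (0.993), Ccdc112, Ppp1r9a, Hdgfl3 and Crispld1. Meis1 was most like Ctla2a (0.995), Golm2, Cdc42bpa, Zfp664 and Cilk1, and Msi2 most like Hdgfl3 (0.994), Rgs1, Ctla2b, Cabyr and Golm2. For Mllt3 they were Krt18 (0.975), Fnbp1l, Iigp1, Dst and Usp54, for Prdm16 Mamdc2 (0.986), Cyp7b1, Traf1, Cpne8 and Pdgfd, and for Erg Nfia (0.984), Pde4b, Ccdc112, Nr4a2 and Zbtb20. On set-adjusted means F11r, Arhgef12, Ctla2a, Fnbp1l, Zbtb20 and Ctla2b stayed among the 5 most like their member, and the other 29 did not.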

How the data were processed

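RNA was amplified and hybridised to Affymetrix whole-transcript arrays, per the labels' protocols. The deposited log2 values were made by the authors with RMA, per the submitters' processing notes, whose version and settings are not given in the sources used here. They span 1.39 to 14.29. Of 35557 probes, 21789 match 1 gene, and 1621 match several and 12147 none, which were left out. Gene identifiers of 21698 matched RefSeq and 91 did not. The brightest probe stood for each of 999 genes with several, leaving 19938.

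All 31 arrays were quantile normalized here, and limma 3.58.1 in R 4.3.3 (lmFit, contrasts.fit, eBayes) gave two-sided moderated tests with 22 residual degrees of freedom, or 18 with the array set as a block. P-values were Benjamini-Hochberg adjusted over all genes within each of 14 comparisons. The number of arrays limits the precision. Arrays of 1 population correlated at 0.961 to 0.995. The 5 sets join arrays that share at least 2 identical deposited values. The fits were tested on simulated data. Plots used Python 3.11.15 and matplotlib 3.10.9.

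The members and lists were chosen with earlier results of these data known. The 7 members are named throughout, and from each list up to 4 genes called in both fits with the largest changes, all paralogues where useful, and the 5 most-like genes per member. Genes outside this rule (genes of the heptad and partner list not called in both fits, Syncrip and markers) were chosen after their values were seen. Same-numbered arrays deviated together, with every pair over 0.1, in MPP4 against LT-HSC (r 0.126 to 0.271) and GMP against LT-HSC (0.217 to 0.415). The labels state no shared animal, and number 4 in these pairs marks arrays of set 2. Alternatives were the deposited values, median centring, the set and replicate blocks, fits within sets, mean of probes, a filter on dim genes, array weights, only the 2 populations, and each array left out. Fits within sets on deposited values, single arrays left out of the set block fit and the second Mecom probe were added after seeing the data.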

Additional observations from a re-analysis of the deposited data

Results flagged for a closer look

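In groups of 4 or 5 arrays, 21 member values by population were checked for an array far from the others by Dixon's criterion, and 3 stood apart, where chance gives about 1 in 20. Hlf read 10.76 on MPP4 5, against a next value of 11.02. Hlf read 8.32 on GMP 4, against 7.95 on the next GMP array, and Mllt3 read 9.22 on GMP 4, against 8.51. MPP4 5 and GMP 4 both belong to set 2, which differs from the sets of most other MPP4 and GMP arrays.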

How the results depend on the processing

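Of 14 counts of called members, those for GMP and Gr against LT-HSC stayed at 7 with the deposited values, median centring and the set block. They also stayed at 7 with each array that could be left out. With the block, though, the GMP changes are those of GMP 4 against LT-HSC 4, which could not be left out. Leaving out other arrays could not move them (Mecom stayed at -4.36), so the GMP count there shows no stability. Within set 2, with 1 GMP and 1 LT-HSC array, the GMP changes were the same. The deposited values shift the median of all genes against LT-HSC by up to 1.35. On them 5 members were called in ST-HSC against LT-HSC, all of them higher. In MPP2 against LT-HSC 3 were called, of which Erg and Msi2 were higher. The counts were 2 in MPP3 and 4 in CMP against LT-HSC, 2 in CMP against MPP4, and 1 each in PreGr against GMP and Gr against PreGr. With median centring the counts were 4 in ST-HSC and 7 in MPP3 against LT-HSC, 2 in CMP against MPP4, and 1 each in PreGr against GMP and Gr against PreGr. With the set block they were 1 in ST-HSC, 3 in MPP2 and 2 in MPP4 against LT-HSC, and 5 in MPP2 against ST-HSC, where the fit without it gave 2, 5, 4 and 3. Within set 2 they were 0 in MPP3 and 0 in MPP4 against LT-HSC on either scale, and within set 3 they were 1 in MPP3 against ST-HSC on either scale; these fits hold fewer arrays, and in set 2, with 1 array each of LT-HSC, MPP3 and GMP, the spread comes from the 2 MPP4 arrays alone, so its calls say nothing of stability. The mean of a gene's probes gave 1 in ST-HSC against LT-HSC.

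With single arrays left out of either fit, the counts spanned 0 to 2 in ST-HSC, 1 to 5 in MPP2, 2 to 4 in MPP4 and 3 to 7 in CMP against LT-HSC, 3 to 5 in MPP2 against ST-HSC, 3 to 7 in CMP against MPP4, 1 to 6 in GMP against CMP and 1 to 3 in Gr against PreGr. The set block could not be fitted without LT-HSC 4 for comparisons with LT-HSC, without MPP3 3 for ST-HSC, MPP2 and MPP3 against LT-HSC, or without GMP 4 for GMP and Gr against LT-HSC and GMP against CMP. With the replicate block the count in MPP4 against LT-HSC was 5, where the fit without it gave 4, and Erg in CMP against MPP4 missed the call (-0.49, adjusted p = 0.0542).

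Signs turned as follows (log2 changes); Mecom and Prdm16 in ST-HSC, Mllt3 in GMP against CMP and Erg in MPP2 against LT-HSC had passed the test without the set block. On deposited values in ST-HSC against LT-HSC Mecom was 0.23, Mllt3 0.76, Prdm16 0.37 and Erg 0.83. In MPP2 against LT-HSC Meis1 was 0.43, Erg 0.54 and Msi2 0.71, and in MPP3 Meis1 was 0.01, Erg 0.28 and Msi2 0.31. In MPP2 against MPP3 Hlf was 0.11, Mllt3 0.17, Prdm16 0.18 and Erg 0.26, in PreGr against GMP Erg was 0.03, and in Gr against PreGr Hlf was -0.02 (also within set 5). With median centring, ST-HSC against LT-HSC gave Hlf -0.41, Meis1 -0.53 and Msi2 -0.35, MPP2 against MPP3 gave Erg 0.01, and Gr against PreGr gave Hlf -0.07. With the set block, ST-HSC against LT-HSC gave Meis1 -0.22, Mllt3 0.05 and Erg 0.32, MPP2 against MPP3 gave Meis1 -0.06 and Erg 0.02 (the same within set 3), GMP against CMP gave Mllt3 0.30, and PreGr against GMP gave Mllt3 0.03 (the same within set 5 and with array weights). Within set 3 on deposited values MPP2 against MPP3 gave Mecom -0.03, Meis1 -0.07 and Msi2 -0.03, and with array weights Meis1 -0.03 and Msi2 -0.01. With the replicate block Erg in ST-HSC against LT-HSC was 0.01. With arrays left out, Erg spanned -0.11 to 0.01 and Mllt3 -0.27 to 0.02 in ST-HSC against LT-HSC, Erg -0.27 to 0.04, Meis1 -0.13 to 0.11 and Prdm16 -0.18 to 0.01 in MPP2 against MPP3, Mllt3 -0.32 to 0.03 in PreGr against GMP, and Hlf -0.11 to 0.15 and Msi2 -0.08 to 0.07 in Gr against PreGr. The cause was not tested, other than the median shift of the deposited values given above.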

Other observations

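In Gr against LT-HSC, 3 of 7 genes in the MSI2 list fell, where 11.3% of all genes did, and 1 rose. The share of all genes that rose is not given here. Myc, whose RNA MSI2 binds, fell 14.1-fold (adjusted p = 3.05e-17), Ikzf2 3.17-fold (3.03e-06) and Syncrip 2.54-fold (8.71e-11). Numb, a classical Musashi target, rose 4.09-fold (8.53e-10). A link to the fall of Msi2 was not tested. Of the 8 genes in the list of the heptad and its partners, Lmo2 fell 4.64-fold (adjusted p = 1.17e-15) and Ldb1 2.89-fold (1.26e-09), where 11.3% of all genes fell.

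In Gr against PreGr, where Mllt3 fell, 4 of its 13 partners in elongation rose: Ell2 2.71-fold (adjusted p = 2.92e-08), Ccnt1 1.60-fold (0.00296), Aff4 by 0.49 on the log2 scale (0.0349) and Ell 1.35-fold (0.0362). Dot1l, the H3K79 methyltransferase, fell 1.28-fold (adjusted p = 0.0494). In this comparison 8.12% of all genes rose.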
